A study of Mus musculus with 15 samples.

Results

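The arrays with FXRα2 were set against the arrays with FXRα1, a comparison of 2 human FXR isoforms that share the short N-terminus and differ by the MYTG insert. Members were taken by their titles, 3 arrays of each isoform, which is 6 of the 15 arrays of the series. All cells were primary hepatocytes of male C57BL/6J mice, freed from the liver by collagenase perfusion, purified on percoll and exposed to adenovirus overnight. The FXRα2 group received a virus for human FXRα2, which lacks the insert, and the FXRα1 group a virus for human FXRα1, which carries it. The same step in the long N-terminus was FXRα4, without the insert, against FXRα3, with it, and a virus for GFP alone was the control. Every isoform virus also made GFP from a CMV promoter of its own, so all 5 groups carried GFP, and each hepatocyte kept its mouse FXR gene. The cells were then held for 24 h in medium without dexamethasone and insulin, and RNA was taken 36 h after transduction. Total RNA was read on Affymetrix mouse whole-transcript arrays, 3 per group, and that number limits the precision. Whether the replicates came from different mice is not given in the labels. The tests therefore rest on the scatter among the 3 arrays of a group, and part or all of it may be technical. Over all genes, arrays of one isoform correlated at 0.997 to 0.999, and FXRα2 arrays correlated with FXRα1 arrays at 0.988 to 0.990.

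FXR is the nuclear receptor for bile acids. With its partner RXR it binds DNA at paired hexamer half-sites and adjusts bile acid synthesis, bile export, lipid and glucose metabolism in the liver. The insert lies next to the DNA-binding domain, and isoforms that lack it are known to act on some target genes more strongly than isoforms that carry it. Values below are log2 signals of 1 probe set per gene, a difference is FXRα2 minus FXRα1 on that scale with its standard error (SE), and a gene is said to have risen or fallen where limma's adjusted p was under 0.05. In these bulk samples, fewer cells of a type and less RNA per cell cannot be told apart. The mouse FXR gene, Nr1h4, averaged 7.11 with FXRα2 and 7.01 with FXRα1 (difference 0.09 ± 0.07, adjusted p = 0.4). Its probe set was designed for the mouse gene, and whether it also reads the human transgenes was not tested, so it does not check the labels. Each isoform came from its own virus, and the amount of human FXR in each group was not tested. Unequal amounts and the insert cannot be told apart here.

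The 3 stretches of promoter sequence below hold matches to letters that an FXR and RXR pair is known to read. In Abcb11 these are paired half-sites with 1 mismatch. In Epcam and Lrrc2 they are single half-sites, and neither stretch holds the pair. They come from the RefSeq promoter table, build GRCm38.p6, which holds 250 bases before and 50 after each annotated start. The first is from Abcb11, the bile salt export pump, on the minus strand at chr2:69342637-69342740, and capitals mark matches with at most 1 mismatch to the inverted repeat AGNTCANTGANCT, searched on both strands. The others are from Epcam, plus strand at chr17:87635787-87635914, and Lrrc2, plus strand at chr9:110951494-110951544, both among the largest rises, and capitals mark the single half-sites AGGTCA or AGTTCA on either strand.
Abcb11: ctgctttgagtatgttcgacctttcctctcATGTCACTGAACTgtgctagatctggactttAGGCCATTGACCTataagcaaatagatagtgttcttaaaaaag
Epcam: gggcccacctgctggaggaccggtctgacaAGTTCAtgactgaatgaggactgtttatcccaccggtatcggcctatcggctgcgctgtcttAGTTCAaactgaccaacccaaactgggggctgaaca
Lrrc2: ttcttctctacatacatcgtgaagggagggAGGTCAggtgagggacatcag
The inverted repeat with at most 1 mismatch was found in 301 of 32851 promoters (0.916%) and in 149 of the 18155 promoters of tested genes (0.821%). The FXR target list had 26 promoters, from 22 of its 26 measured genes. Of those 26 promoters 1 held this repeat (3.85%), that of Abcb11. It was also in 4 of 373 promoters of genes at least 2-fold higher with FXRα2 (1.07%). The everted repeat TGANCTNNAGNTCA, with the same allowance, was in 371 promoters of all genes (1.13%) and in 180 of those of tested genes (0.991%). It was in 0 of the 26 and in 3 of the 373 (0.804%). None of the 20 promoters of the 16 matched genes among the 20 largest rises held either repeat. The half-site AGGTCA stood in 3 of those 20 promoters, in 12.6% of promoters of genes at least 2-fold higher, in 7 of the 26 of the FXR target list (26.9%) and in 16.3% of all promoters. Among promoters of tested genes its share was 14.3%. The half-site AGTTCA stood in 2 of the 20, in 10.5% of promoters of genes at least 2-fold higher, in 9 of the 26 (34.6%) and in 14% of all promoters. Among promoters of tested genes its share was 11.9%. A match describes letters in this window and is no evidence of binding, and a missing match says nothing of sites elsewhere.

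FXRα2 and FXRα1 gave widely different expression. Of 18820 genes, 5882 differed (31.3%): 2657 rose with FXRα2 (14.1%) and 3225 fell (17.1%). Large changes went mostly upward, with 366 genes at least 2-fold higher (1.94%) and 68 at least 2-fold lower (0.361%), and 57 genes were at least 4-fold higher and 4 at least 4-fold lower. The median difference over all genes was −0.04, and the 10th and 90th percentiles were −0.32 and 0.32. The 3 arrays of each isoform did not overlap for 3082 genes higher with FXRα2 (16.4%) and 4112 genes lower (21.8%). The share of rises among the genes called depended on scaling, at 45.2% as deposited, 22.8% with each array centred on its median, 53.3% with centring on the 75th percentile, and 40.9% to 51.4% on leaving out 1 array. Centring on the median moved the difference of every gene by −0.12, and for gene lists the count with this centring is given wherever it moved by more than 1.5 times.

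The largest rise was in Ckb, the brain-type creatine kinase that buffers ATP through phosphocreatine. Ckb read 10.53, 10.24 and 10.86 with FXRα2, against 5.86, 5.32 and 5.28 with FXRα1. Every FXRα2 array stood far above every FXRα1 array, and FXRα1 did not pass the test against GFP, which averaged 5.39 (FXRα1 minus GFP 0.10 ± 0.20, adjusted p = 0.85). The difference was 5.05 ± 0.20 (adjusted p = 3.4e-14), a 33.2-fold rise, and it was larger than the 2.32 ± 0.20 between FXRα4 and FXRα3 (difference of the differences 2.73 ± 0.29, adjusted p = 1.3e-06). Epcam, an adhesion protein of epithelia that marks bile duct and progenitor cells in the liver, read 9.80, 9.93 and 10.18 with FXRα2, against 5.71, 5.70 and 5.69 with FXRα1. The groups were separate, with a rise of 4.27 ± 0.10 (adjusted p = 6.0e-18) and one of 3.94 ± 0.10 with FXRα4. The test of the difference between these rises did not pass for Epcam (adjusted p = 0.14).

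**Figure D1:**
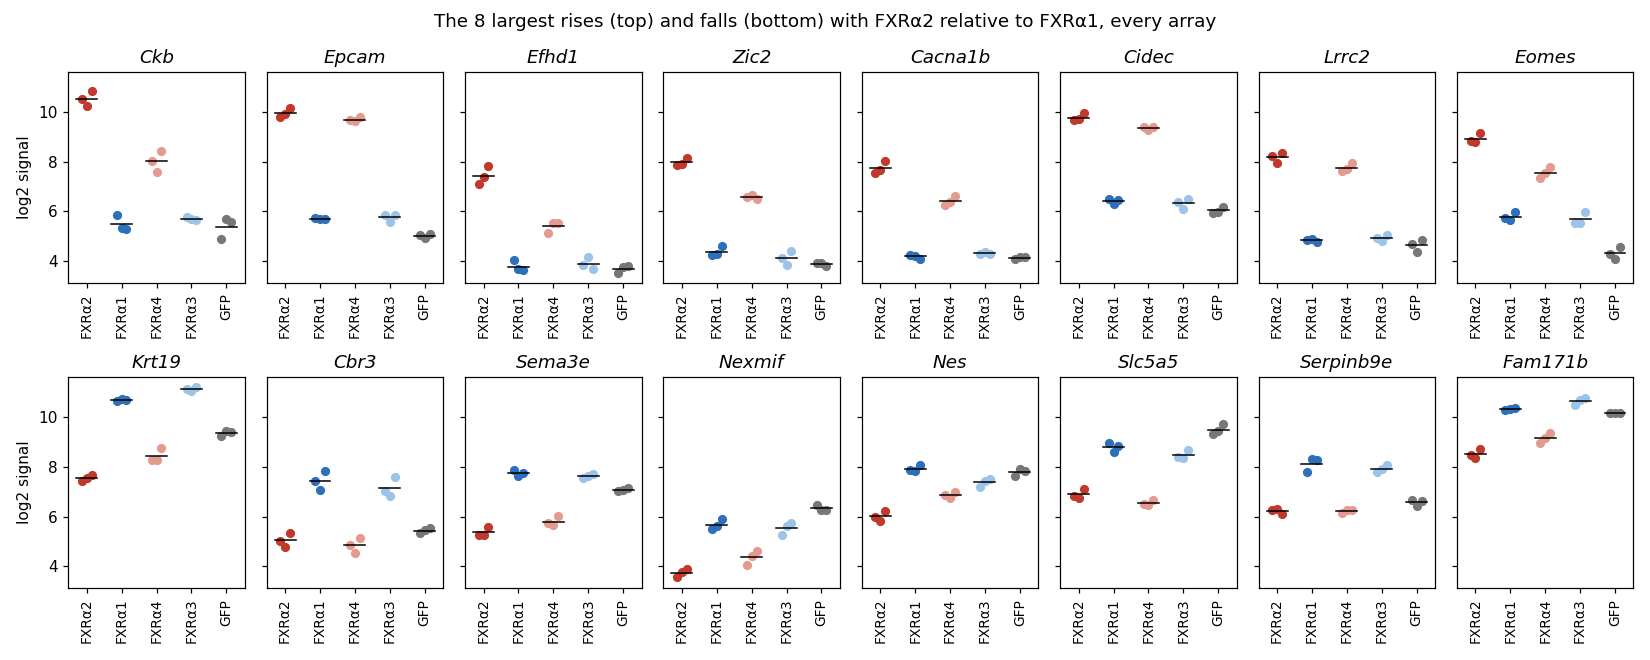
Log2 signal of every array (points) and group mean (black bars) for the 8 largest rises, top row, and the 8 largest falls, bottom row, in the 5 groups. FXRα2 arrays stand apart from FXRα1 arrays in all 16 panels, and FXRα4 arrays lie on the FXRα2 side of FXRα3 in each.

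The other large rises were in genes of varied function. Efhd1, a mitochondrial calcium-binding protein, rose by 3.65 ± 0.17, Zic2, a zinc-finger factor of the early brain, by 3.59 ± 0.13, and Cacna1b, the pore of the N-type calcium channel, by 3.57 ± 0.12. Eomes, a T-box factor of embryo and lymphocytes, read 8.82, 8.81 and 9.17 with FXRα2, against 5.72, 5.64 and 5.96 with FXRα1. With GFP alone it averaged 4.32, so both isoforms stood above the control and FXRα2 the more (difference 3.16 ± 0.14, adjusted p = 2.7e-13). Chrm4, a muscarinic acetylcholine receptor, rose by 2.62 ± 0.15 and Efnb2, the membrane ligand ephrin-B2, by 2.76 ± 0.14. Lrrc2, a leucine-rich repeat protein, rose by 3.34 ± 0.13, Il17d, a cytokine of the IL-17 family, by 2.93 ± 0.12, Cldn9, a claudin of tight junctions, by 2.86 ± 0.14, and Mme, the membrane peptidase neprilysin, by 2.85 ± 0.11. Slc25a35, a mitochondrial carrier, Ttc9, Sgk2, a kinase related to Akt, Mtss2 and Uroc1 rose by 2.44 to 2.84. Ramp3, a partner protein of calcitonin-family receptors, read 6.04, 5.91 and 6.17 with FXRα2, against 3.34, 3.56 and 3.66 with FXRα1. Its FXRα1 arrays sat at the level of GFP (3.56), the rise was 2.52 ± 0.12, and FXRα4 and FXRα3 averaged 3.44 and 3.41.

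Cidec, which fuses lipid droplets, was the largest rise in fat storage. Cidec read 9.68, 9.71 and 9.94 with FXRα2, against 6.48, 6.30 and 6.47 with FXRα1. The arrays were fully separate (difference 3.36 ± 0.10, adjusted p = 2.8e-16), and the rise with FXRα4 was 3.02 ± 0.10.

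Krt19, a keratin of bile duct cells, fell the most. Krt19 read 7.45, 7.54 and 7.66 with FXRα2, against 10.66, 10.73 and 10.70 with FXRα1. All FXRα2 arrays were below the GFP mean of 9.37 and all FXRα1 arrays above it, and the difference was −3.15 ± 0.09 (adjusted p = 2.8e-16). Cbr3, a carbonyl reductase, read 5.02, 4.77 and 5.34 with FXRα2, against 7.45, 7.06 and 7.84 with FXRα1, and here FXRα2 was near GFP (5.43) while FXRα1 was higher (difference −2.40 ± 0.19, adjusted p = 2.1e-09). Slc5a5, the sodium and iodide symporter, showed another order, with means of 6.90 with FXRα2, 8.81 with FXRα1 and 9.49 with GFP. Sema3e, a secreted semaphorin (−2.38 ± 0.10), Nexmif (−1.92 ± 0.15), Nes, the filament protein nestin (−1.91 ± 0.11), Serpinb9e (−1.90 ± 0.12), Fam171b (−1.83 ± 0.08) and Tinagl1 (−1.46 ± 0.06) also fell. Rbl1, the pocket protein p107 that holds back E2F, fell (−1.70 ± 0.07), but its dimmer probe set read 0.26 ± 0.12 (adjusted p = 0.14), so the probe sets disagree. Dio3, which inactivates thyroid hormone, fell (−1.24 ± 0.05), as did Umps, the last enzyme of pyrimidine synthesis (−1.24 ± 0.05). The remaining 8 of the 20 largest falls, among them Jazf1, the ERK phosphatase Dusp9 and the RNase P subunit Rpp25, lay between −1.44 and −1.26.

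Set against GFP, the genes that moved most stood in different places. Of the 366 genes at least 2-fold higher with FXRα2 than with FXRα1, 366 were above GFP with FXRα2 (against 17.5% of all genes) with a median difference of 1.52. With FXRα1, 83 of them were above GFP and 17 below (against 8.42% and 4% of all genes), and 266 did not pass, with a median of 0.09. Of the 68 genes at least 2-fold lower, 54 were below GFP with FXRα2 and 3 above (against 16.7% and 17.5% of all genes), with a median of −0.78. With FXRα1, 39 of them were above GFP and 4 below, with a median of 0.37. The comparisons with GFP share the GFP arrays and the isoform arrays by which these genes were chosen, so the counts are descriptions.

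Known FXR targets were mostly higher with FXRα2. In a list of 26 measured genes, 16 rose, 2 fell and 8 did not pass, with a median of 0.21. The list does not separate genes that FXR raises from genes that it lowers, so these counts do not measure activation. With centring on the median 8 rose. In bile export, Abcb11 read 8.46, 8.41 and 8.73 with FXRα2, against 8.27, 7.88 and 8.39 with FXRα1. The isoforms did not overlap, but FXRα1 replicates 1 and 3 lay close to the FXRα2 arrays, and all 6 arrays were far above the GFP mean of 5.17. The difference of 0.35 ± 0.13 (adjusted p = 0.037) missed the threshold without FXRα1 replicate 2 (0.20, adjusted p = 0.24), FXRα2 replicate 1 (0.39, adjusted p = 0.054) or FXRα2 replicate 3 (0.25, adjusted p = 0.17). In the long N-terminus the same gene rose by 1.38 ± 0.13, which was more (difference of the differences −1.03 ± 0.18, adjusted p = 4.2e-04). Abcb4, the phospholipid exporter, was at 0.21 ± 0.07 (adjusted p = 0.017) and missed the threshold without FXRα2 replicate 1 (0.15, adjusted p = 0.13) or FXRα1 replicate 2 (0.17, adjusted p = 0.075). With centring on the median both Abcb11 (0.24, adjusted p = 0.068) and Abcb4 (0.10, adjusted p = 0.29) missed it. Abcb11 also missed it with array weights (adjusted p = 0.084) and without the mean-variance trend (adjusted p = 0.062). Abcc2, the canalicular exporter of conjugates, read 10.30, 10.36 and 10.35 with FXRα2, against 11.27, 11.24 and 11.25 with FXRα1. It fell, with separate arrays on either side of the GFP mean of 10.73 (−0.91 ± 0.04, adjusted p = 2.6e-13). The basolateral bile acid exporter subunits Slc51a and Slc51b did not pass (0.09 ± 0.11 and 0.02 ± 0.15).

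**Figure D2:**
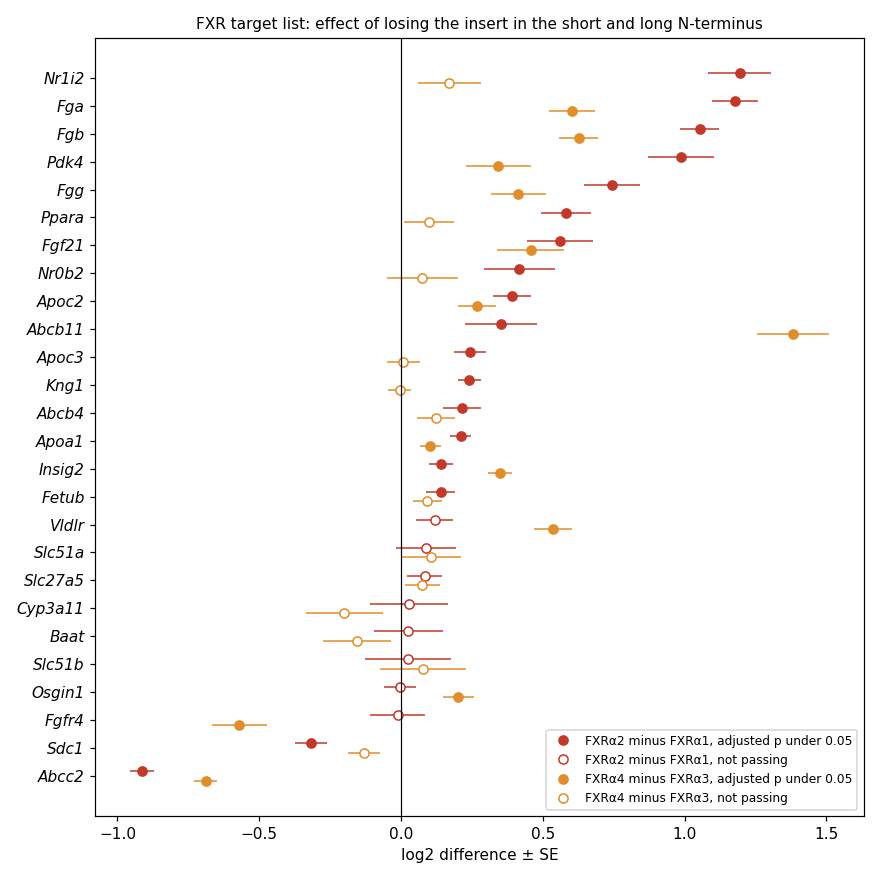
Log2 difference (points) with its standard error (bars) for the 26 measured genes of the FXR target list, for FXRα2 minus FXRα1 and FXRα4 minus FXRα3. Filled points passed an adjusted p of 0.05, and in the short N-terminus 16 lie to the right of 0 and 2 to the left.

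Among the regulators on that list, Nr1i2, the xenobiotic receptor PXR, read 7.85, 7.62 and 7.76 with FXRα2, against 6.61, 6.28 and 6.76 with FXRα1. The arrays did not overlap, with a rise of 1.20 ± 0.11 (adjusted p = 1.9e-08), larger than the 0.17 ± 0.11 in the long N-terminus (adjusted p = 1.2e-04). Ppara, the fasting receptor PPARα, rose by 0.58 ± 0.09 and the hormone Fgf21 by 0.56 ± 0.12. Nr0b2, the repressor SHP, was at 0.42 ± 0.13 (adjusted p = 0.013), and at 0.28 (adjusted p = 0.12) without FXRα2 replicate 2. Without FXRα1 replicate 1 or replicate 3 it also missed the threshold, at adjusted p = 0.064 and 0.057. With centring on the median Nr0b2 was at 0.30 (adjusted p = 0.11). Pdk4, the kinase that shuts off pyruvate dehydrogenase, read 8.26, 8.35 and 8.60 with FXRα2, against 7.46, 7.30 and 7.48 with FXRα1, a rise of 0.99 ± 0.12 (adjusted p = 5.1e-07) with no overlap. The 3 fibrinogen chains rose together, Fga by 1.18 ± 0.08, Fgb by 1.05 ± 0.07 and Fgg by 0.74 ± 0.10. Of the apolipoproteins on the list, Apoc2 rose by 0.39 ± 0.07, Apoc3 by 0.24 ± 0.06 and Apoa1 by 0.21 ± 0.04, of which the Apoc3 and Apoa1 calls were lost with centring on the median (0.13 and 0.09). Kng1, kininogen, was at 0.24 ± 0.04 and also lost its call there (0.12). The syndecan Sdc1 fell (−0.32 ± 0.06, adjusted p = 1.1e-04). Fetub and Insig2 were at 0.14 ± 0.05 and 0.14 ± 0.04. Both lost their calls with centring on the median (0.02 and 0.02) and without FXRα1 replicate 1 (0.10 and 0.12). Fetub also lost it without FXRα1 replicate 3 or FXRα2 replicate 2 or 3, and Insig2 without FXRα2 replicate 1. Vldlr, Slc27a5, Baat, Osgin1, Fgfr4 and Cyp3a11 did not pass, with differences between −0.01 and 0.12.

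The 34 pathway lists overlap in members and were chosen with earlier results of these data known, so their counts are read beside the 14.1% of all genes that rose and the 17.1% that fell. Medians are set beside −0.04 over all genes.

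**Figure D3:**
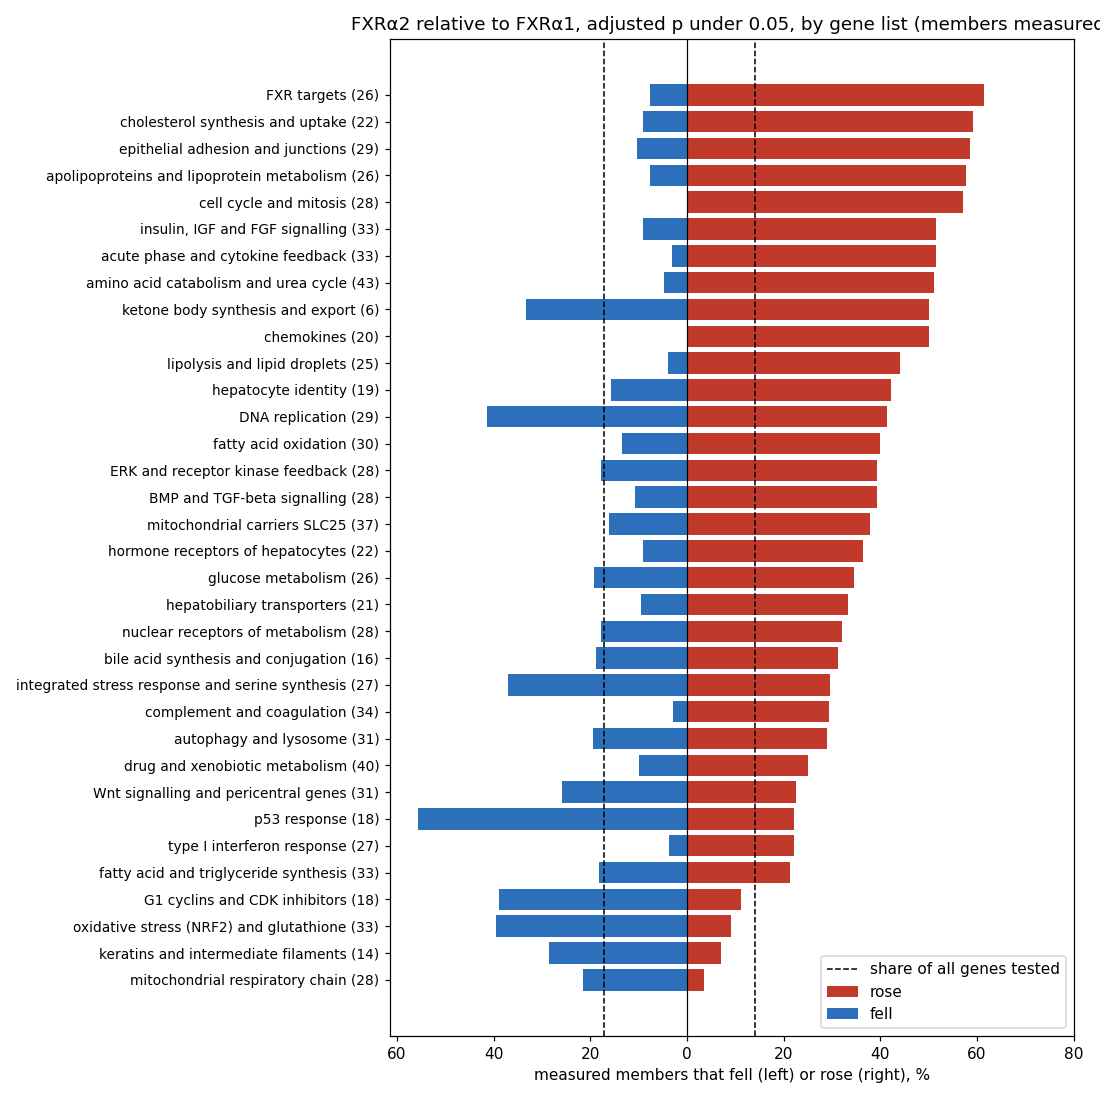
Share of measured members of each of the 34 lists that rose (right) or fell (left) with FXRα2 relative to FXRα1 at an adjusted p under 0.05, with the number measured in brackets. Dashed lines mark the shares over all genes, 14.1% and 17.1%; FXR targets, with 16 of 26 risen, stand at the top and the respiratory chain, with 1 of 28, at the bottom.

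In bile acid synthesis 5 of 16 genes rose and 3 fell (median 0.06), and with centring on the median 3 rose. Cyp8b1, the sterol 12α-hydroxylase that makes cholic acid, read 7.38, 7.21 and 7.35 with FXRα2, against 6.41, 6.55 and 6.75 with FXRα1. It rose, with no overlap, by 0.74 ± 0.11 (adjusted p = 1.4e-05), whereas FXRα4 against FXRα3 gave −0.58 ± 0.11 (adjusted p = 2.3e-04), and the difference of the differences was 1.32 ± 0.16 (adjusted p = 5.2e-06). Cyp7b1, of the alternative pathway, fell (−0.40 ± 0.10), Scp2 and Hsd17b4, which shorten the side chain in peroxisomes, rose (0.54 ± 0.10 and 0.34 ± 0.05), and Amacr fell (−0.35 ± 0.09). In hepatobiliary transport 7 of 21 genes rose and 2 fell (median 0.06). Without FXRα2 replicate 1 or replicate 3, 4 rose, and with centring on the median 3 rose and 5 fell. On leaving out 1 array the median ran from 0.02, without FXRα1 replicate 2, to 0.14, without FXRα2 replicate 2. Slc10a1, the bile acid importer NTCP, rose by 0.99 ± 0.12, Abcb1a, a P-glycoprotein, by 0.90 ± 0.07, and Abcc4, an exporter of the sinusoidal membrane, fell (−0.79 ± 0.07). Abcc6 read 6.88, 6.80 and 6.77 with FXRα2, against 5.70, 5.43 and 5.30 with FXRα1. Its arrays were separate and the rise of 1.34 ± 0.10 stood beside −0.03 ± 0.10 in the long N-terminus (adjusted p of the difference = 1.7e-06).

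Of 25 genes of lipid droplets and fat breakdown 11 rose, 1 fell and 13 did not pass (median 0.12). With centring on the median 3 fell, and 2 fell without FXRα1 replicate 1 or FXRα2 replicate 3, where the median was 0.19. Pnpla2, the triglyceride lipase ATGL, rose by 0.92 ± 0.07, its activator Abhd5 by 0.68 ± 0.05, and hormone-sensitive lipase, Lipe, by 0.77 ± 0.11, with its dimmer probe set at 0.44 ± 0.14. Lipg, the endothelial lipase, read 6.25, 6.48 and 6.87 with FXRα2, against 3.96, 4.01 and 4.32 with FXRα1, a separate and large rise (2.43 ± 0.15, adjusted p = 3.3e-11). Cidea, a relative of Cidec, rose by 1.45 ± 0.10 with FXRα2 and was at 0.15 ± 0.10 with FXRα4 (adjusted p of the difference = 2.2e-06). In fatty acid oxidation 12 of 30 rose and 4 fell (median 0.17), and with centring on the median 7 rose. The falls were 2 without FXRα1 replicate 3, FXRα2 replicate 2 or FXRα2 replicate 3. Decr2 rose by 0.92 ± 0.06, the thiolase Acaa2 by 0.64 ± 0.05, Eci2 by 0.67 ± 0.06 and Hadh by 0.37 ± 0.04, and for 11 of the 30 the difference was more positive than in the long N-terminus, with 0 more negative by limma (3 at an unadjusted p under 0.05), against 5.63% and 7.24% of all genes. In ketone metabolism, Bdh1, which makes β-hydroxybutyrate, rose by 1.16 ± 0.11 and the exporter Slc16a1 fell (−0.27 ± 0.05). There 3 of 6 genes rose and 2 fell (median 0.10), but 1 rose without FXRα1 replicate 2 or with centring on the median, and 1 fell without FXRα1 replicate 3, FXRα2 replicate 1 or FXRα2 replicate 2.

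In fatty acid and triglyceride synthesis 7 of 33 rose and 6 fell (median 0.04), and with centring on the median 3 rose and 13 fell. The median lay between −0.030 and −0.0025 without FXRα1 replicate 1 or 2 or FXRα2 replicate 1 or 3. Fasn, fatty acid synthase, rose by 0.30 ± 0.05, Elovl2 by 0.50 ± 0.09 and Lpin3 by 0.94 ± 0.10, while Lpin1 and Elovl7 fell (−0.84 ± 0.07 and −0.50 ± 0.04). Cholesterol synthesis was more one-sided, with 13 of 22 risen and 2 fallen (median 0.23). Hmgcs1, the synthase of the mevalonate pathway, read 9.94, 9.97 and 9.90 with FXRα2, against 9.31, 9.16 and 9.27 with FXRα1. It rose by 0.69 ± 0.05 (adjusted p = 7.3e-10) with no overlap, with Dhcr7 at 0.68 ± 0.08, Msmo1 at 0.64 ± 0.06, the regulator Srebf2 at 0.44 ± 0.05 and Sqle at 0.34 ± 0.05, and Lss, lanosterol synthase, fell (−0.56 ± 0.06). Of 26 apolipoprotein and lipoprotein genes, 15 rose and 2 fell (median 0.14), and with centring on the median 7 rose and 5 fell, while 4 fell without FXRα2 replicate 3. Sort1, a sorting receptor of lipoproteins, rose by 0.96 ± 0.08, Apom by 0.78 ± 0.07, Abcg1 by 0.75 ± 0.11 and Lcat by 0.66 ± 0.08, and the lipase inhibitor Angptl4 fell (−0.52 ± 0.07). In glucose metabolism 9 of 26 rose and 5 fell (median 0.09), and 3 fell without FXRα1 replicate 3 or FXRα2 replicate 2. That median ran from 0.05, without FXRα2 replicate 1, to 0.14, without FXRα1 replicate 3. Gckr, which holds glucokinase in the nucleus, fell (−1.18 ± 0.09) and glycogen synthase Gys2 rose by 0.84 ± 0.13.

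In amino acid breakdown 22 of 43 genes rose and 2 fell (median 0.21), and 4 fell with centring on the median. Uroc1, urocanase of histidine breakdown, read 6.72, 6.82 and 6.86 with FXRα2, against 4.56, 4.44 and 4.09 with FXRα1. The arrays were separate (rise 2.44 ± 0.14, adjusted p = 5.6e-12), and the step in the long N-terminus was smaller at 0.69 ± 0.14. Hgd, of tyrosine breakdown, rose by 2.04 ± 0.13, Cdo1, which oxidises cysteine, by 1.20 ± 0.09, Nags, which switches on the urea cycle, by 1.01 ± 0.07, Cbs by 0.80 ± 0.06 and Asl by 0.62 ± 0.06, and tyrosine aminotransferase, Tat, fell (−0.63 ± 0.07). In the list of the acute phase and cytokine feedback 17 of 33 rose and 1 fell (median 0.18). With centring on the median 4 fell, and 2 fell without FXRα1 replicate 2 or FXRα2 replicate 3. Orm3 and Orm2, orosomucoids, rose by 3.04 ± 0.11 and 2.25 ± 0.07, Steap4 by 1.61 ± 0.09, the feedback inhibitor Socs3 by 0.95 ± 0.11 (its dimmer probe set at 0.29 ± 0.16, adjusted p = 0.18) and Crp by 0.74 ± 0.09, and the cytokine receptor Il6st fell (−0.36 ± 0.04). In complement and coagulation 10 of 34 rose and 1 fell (median 0.11), and 5 fell with centring on the median (median −0.01). Besides the 3 fibrinogen chains, the plasmin inhibitor Serpinf2 (1.21 ± 0.07) and heparin cofactor Serpind1 (0.94 ± 0.10) rose. Of 20 chemokines 10 rose and 0 fell by limma at an adjusted p under 0.05 (1 was lower at an unadjusted p under 0.05, and 1 fell with centring on the median or without FXRα1 replicate 2; median 0.29), with Cxcl10 at 1.56 ± 0.10, Cxcl1 at 1.24 ± 0.07 and Ccl20 at 0.92 ± 0.09. Ccl2 read 10.56, 10.52 and 10.49 with FXRα2, against 9.75, 9.88 and 9.76 with FXRα1. Its FXRα2 arrays were near the GFP mean of 10.46 and its FXRα1 arrays below (difference 0.73 ± 0.06, adjusted p = 8.1e-09). In the interferon list 6 of 27 rose and 1 fell (median 0.22, with 0.09 and no fall without FXRα2 replicate 1, 0.12 without FXRα1 replicate 2, and 2 falls with centring on the median), among them Ifit1 (1.06 ± 0.15) and Dhx58 (1.16 ± 0.19).

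Hepatocyte transcription factors rose in part. Of 19 identity genes 8 rose and 3 fell (median 0.14), and with centring on the median 5 rose. Hnf4a, the central hepatocyte factor, read 10.67, 10.61 and 10.59 with FXRα2, against 10.18, 10.11 and 10.26 with FXRα1. Both isoforms were above the GFP mean of 9.09, with FXRα2 higher by 0.44 ± 0.05 (adjusted p = 6.7e-07), Foxa1 rose by 0.91 ± 0.07 and Cebpa by 0.85 ± 0.07, and Onecut2 fell (−0.40 ± 0.04). Among nuclear receptors of metabolism 9 of 28 rose and 5 fell (median 0.09). Pparg, the receptor of fat storage, read 7.66, 7.65 and 7.58 with FXRα2, against 8.39, 8.36 and 8.52 with FXRα1. It fell without overlap (−0.80 ± 0.07, adjusted p = 2.6e-09), and FXRα4 against FXRα3 gave 0.04 ± 0.07 (adjusted p of the difference = 2.3e-06). Nr2f2 and Rxrg fell as well (−0.69 ± 0.11 and −0.57 ± 0.11), and Ppard and Rora rose (0.39 ± 0.07 and 0.41 ± 0.07). Of 40 genes of drug metabolism 10 rose and 4 fell (median 0.06), with centring on the median 9 fell, Fmo5 and Cyp17a1 rose by 1.49 ± 0.10 and 1.53 ± 0.14, and Cyp1a1 fell (−0.96 ± 0.13).

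Of 33 genes of glutathione and of the oxidative stress response governed by NRF2, 13 fell, 3 rose and 17 did not pass (median −0.09). Without FXRα1 replicate 1, or with centring on the median, 1 rose, and the median was −0.045 without FXRα1 replicate 2. Slc7a11, the cystine importer, read 10.36, 10.45 and 10.46 with FXRα2, against 11.24, 11.35 and 11.23 with FXRα1. The arrays were separate, FXRα2 below and FXRα1 above the GFP mean of 10.83 (−0.85 ± 0.04, adjusted p = 1.8e-12), and the same held for Srxn1 and Gclc, which fell too (−0.72 ± 0.06 and −0.54 ± 0.05). Gsta3 fell (−0.61 ± 0.04) and Cbr1 rose by 0.58 ± 0.06. In the integrated stress response 8 of 27 rose and 10 fell (median −0.02): Asns, asparagine synthetase, Nupr1 and Trib3 fell (−0.69 ± 0.04, −0.75 ± 0.06 and −0.42 ± 0.05), and Herpud1, of the endoplasmic reticulum, and Ddit4, which holds back mTORC1, rose (0.98 ± 0.05 and 0.59 ± 0.06). The respiratory chain list held 1 risen and 6 fallen of 28 (median −0.06), with Uqcrfs1 the lowest at −0.64 ± 0.07. Centred on the median, 0 rose and 14 fell, and 0 rose without FXRα1 replicate 1 or FXRα2 replicate 2. Without FXRα1 replicate 3, 2 rose and 4 fell. Mitochondrial carriers were mixed, with 14 of 37 risen and 6 fallen (median 0.08), and 7 and 11 with centring on the median. Slc25a47 and Slc25a10 rose by 1.17 ± 0.13 and 0.87 ± 0.08, against −0.08 ± 0.13 and −0.06 ± 0.08 in the long N-terminus. In autophagy 9 of 31 rose and 6 fell (median −0.04), with centring on the median 14 fell, and Ulk1, the kinase that starts the process, rose by 0.78 ± 0.09.

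Most mitotic genes rose with FXRα2. Of 28 in the cell cycle and mitosis list 16 rose and 0 fell by limma, also at an unadjusted p under 0.05 (median 0.56, and 0.37 without FXRα2 replicate 3). Of the 14 members among the 9410 brightest genes 10 rose. With centring on the median, or without FXRα1 replicate 2 or FXRα2 replicate 3, 1 fell. Cdc20, which activates the anaphase-promoting complex, read 6.99, 7.27 and 7.74 with FXRα2, against 5.55, 4.79 and 5.50 with FXRα1. The arrays were separate and FXRα1 was close to the GFP mean of 5.15 (difference 2.05 ± 0.20, adjusted p = 4.0e-08). Kif23, Plk1, Prc1 and Nek2 rose by 1.61 to 1.72, with the dimmer probe set of Prc1 at 0.10 ± 0.11. In the long N-terminus 28 of the 28 rose (against 15.8% of all genes, median 1.41). For 16 of the 28 the difference was more negative by limma in the short N-terminus, against 7.24% of all genes. Bub1, a spindle checkpoint kinase, read 3.56, 3.63 and 4.25 with FXRα2, against 3.61, 3.38 and 3.45 with FXRα1, with overlapping arrays and no call (0.33 ± 0.20), while FXRα4 and FXRα3 averaged 5.87 and 3.61. DNA replication was split, with 12 of 29 risen and 12 fallen (median 0.07). On leaving out 1 array that median ran from −0.04, without FXRα2 replicate 3, through 0.0028, without FXRα1 replicate 2, to 0.14, without FXRα2 replicate 2, and it was −0.04 with centring on the median. The repressor E2f7, Rrm2, which makes deoxynucleotides, and the helicase factor Cdc45 rose by 1.76 ± 0.16, 1.29 ± 0.14 and 1.10 ± 0.09, and the licensing factor Cdt1 and the polymerase Pola1 fell (−0.64 ± 0.08 and −0.61 ± 0.07). Among G1 cyclins and their inhibitors 2 of 18 rose and 7 fell (median −0.07), with Ccnd1 at 0.46 ± 0.09, Ccnd2 at −0.60 ± 0.09 and the inhibitor Cdkn2b at −0.74 ± 0.10. Of 18 p53 response genes 4 rose and 10 fell (median −0.15): Pmaip1, which encodes the death factor NOXA, and Gadd45a fell (−0.86 ± 0.10 and −0.56 ± 0.05), and Perp rose (0.63 ± 0.05).

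**Figure D4:**
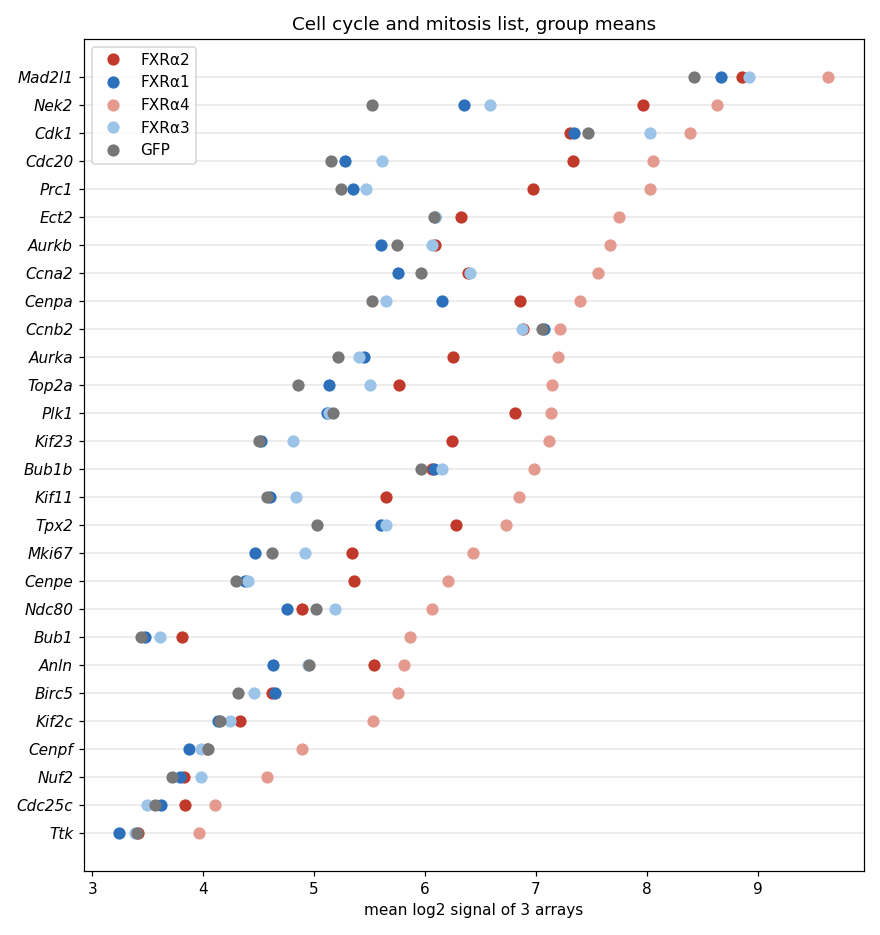
Mean log2 signal of the 3 arrays of each group for the 28 measured genes of the cell cycle and mitosis list; positions compare groups within a row, not genes with each other. FXRα2 stands to the right of FXRα1 for Cdc20, Plk1, Kif23 and Prc1, and FXRα4 is the rightmost group in every row.

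Most adhesion genes rose, 17 of 29 with 3 fallen (median 0.20), and 11 rose with centring on the median. Gjb2, the gap junction protein connexin 26, averaged 11.10 with FXRα2 and 9.98 with FXRα1. It rose without overlap by 1.12 ± 0.05 (adjusted p = 3.2e-13), with Ceacam1 at 1.00 ± 0.08, plakoglobin Jup at 0.83 ± 0.05 and E-cadherin Cdh1 at 0.66 ± 0.05. Of 14 keratins and filament proteins 1 rose and 4 fell (median −0.15), Vim falling (−0.37 ± 0.04) and Synm rising by 0.71 ± 0.11, and 7 fell with centring on the median. In BMP and TGF-β signalling 11 of 28 rose and 3 fell (median 0.10), and 5 fell with centring on the median (median −0.01). Tgfb1 read 9.96, 9.75 and 10.06 with FXRα2, against 8.63, 8.49 and 8.61 with FXRα1, a rise of 1.35 ± 0.07 (adjusted p = 2.6e-12) with no overlap. Bmp2 averaged 8.13 with FXRα2 and 7.18 with FXRα1, both above GFP at 5.11 (difference 0.95 ± 0.11), the targets Id3 and Bambi rose by 1.06 ± 0.09 and 1.21 ± 0.12, and Tgfb2 and Bmp6 fell (−0.87 ± 0.06 and −0.66 ± 0.07). In the ERK list 11 of 28 rose and 5 fell (median 0.11). With centring on the median 7 rose and 10 fell, 8 fell without FXRα1 replicate 2 (median 0.04), and the median was 0.03 without FXRα2 replicate 3. The early genes Egr1 and Fos rose by 1.86 ± 0.09 and 1.23 ± 0.12, and the receptor Erbb3 by 1.01 ± 0.05. Of 33 insulin, IGF and FGF genes 17 rose and 3 fell (median 0.21), and 9 fell with centring on the median, with Sgk2 at 2.49 ± 0.10, Igf1r at 1.47 ± 0.14, Fgfr2 at 1.08 ± 0.10 and Igfbp1, which binds IGFs in blood, at 0.56 ± 0.05. In Wnt signalling 7 of 31 rose and 8 fell (median −0.02), and 4 fell without FXRα1 replicate 1, FXRα1 replicate 3 or FXRα2 replicate 1, and 5 without FXRα2 replicate 2. Lgr5, a receptor for R-spondins, read 3.80, 3.67 and 3.77 with FXRα2, against 4.53, 4.48 and 4.54 with FXRα1. It fell, with FXRα2 close to the GFP mean of 3.77 (−0.77 ± 0.10, adjusted p = 2.2e-06), and the long N-terminus gave 0.41 ± 0.10. Of 22 hormone receptors and ligands 8 rose and 2 fell (median 0.10), 4 fell with centring on the median, and 1 fell without FXRα1 replicate 1 or 3 or FXRα2 replicate 2. Osmr, the oncostatin M receptor, rose (1.23 ± 0.07) and Edn1 fell (−0.75 ± 0.08).

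Markers of cells other than hepatocytes that a preparation could hold were counted for the same arrays. For each set the linear signals were added and the log2 of that sum is given, so the brightest markers weigh most. The 15 Kupffer cell markers summed to 10.04 to 10.12 with FXRα2 and 10.08 to 10.20 with FXRα1. Of them 0 rose by limma (1 at an unadjusted p under 0.05) and 1 fell (Cd14, −0.39 ± 0.07). The 15 sinusoidal endothelial markers summed to 8.86 to 9.12 with FXRα2 and 8.92 to 9.06 with FXRα1, with 1 risen and 2 fallen, and 16 lymphocyte and neutrophil markers to 7.79 to 7.86 with FXRα2 and 7.82 to 7.89 with FXRα1, with 0 called by limma and 2 lower at an unadjusted p under 0.05. The 15 stellate cell and fibroblast markers summed to 9.60 to 9.87 with FXRα2 and 9.13 to 9.42 with FXRα1, with no overlap. Of them 3 rose, Lhx2 by 0.69 ± 0.15, Pdgfra by 0.68 ± 0.12 and Reln by 0.37 (adjusted p = 0.013). Reln missed the threshold without FXRα1 replicate 2 (0.28, adjusted p = 0.073). Lrat, at −0.20 ± 0.09, did not pass (adjusted p = 0.097). The 12 cholangiocyte markers summed to 10.89 to 11.14 with FXRα2 and 11.32 to 11.35 with FXRα1 and moved both ways, Epcam and Sox9 up (0.60 ± 0.07) and Krt19, Slc4a2 and Pkhd1 down. The 13 hepatocyte markers summed to 15.16 to 15.27 with FXRα2 and 15.02 to 15.15 with FXRα1. Of them 6 rose and 1 fell, and with centring on the median 2 rose. Their sum was the highest of the 6, but the sums add different probe sets and do not measure the share of each cell type. Centred on the median, 2 Kupffer cell, 4 lymphocyte and neutrophil and 3 stellate cell markers fell. Without FXRα1 replicate 3, 1 Kupffer cell marker rose, and without FXRα2 replicate 3, 0 endothelial markers rose. The part of other cells in the gene lists was not tested.

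The difference of FXRα2 minus FXRα1 (the short step) was then set beside that of FXRα4 minus FXRα3 (the long step), which shares no array with it. Over 18820 genes, which are not independent replicates, the differences correlated at r = 0.70. Of the 2657 rises 1641 also rose in the long N-terminus, 61.8% of the short and 55.2% of the long list, and 100 fell there, against 15.8% of all genes risen and 13.8% fallen with FXRα4. Of the 3225 falls 1618 also fell, 50.2% of the short and 62.5% of the long list, and 110 rose. The test of the difference between the steps passed for 2422 genes (12.9%), with the short step more positive for 1059 (5.63%) and more negative for 1363 (7.24%). Among the 366 rises of at least 2-fold, 355 had the same sign in the long N-terminus and 326 passed the test there, with medians of 1.33 and 0.95, and since these genes were chosen on the short step the medians are a description.

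**Figure D5:**
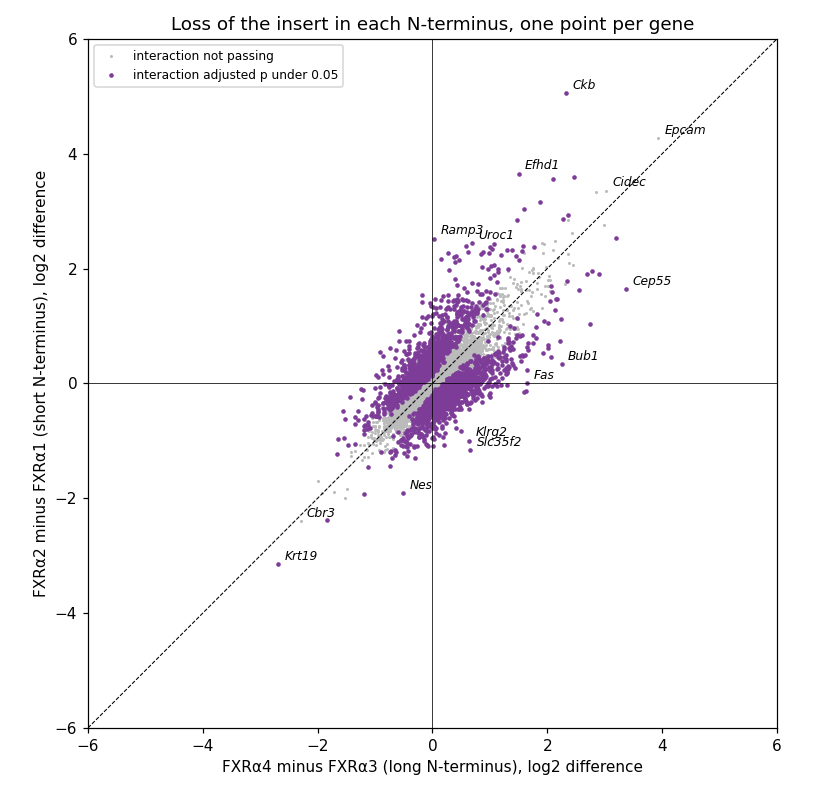
Log2 difference of FXRα2 minus FXRα1 (vertical) against FXRα4 minus FXRα3 (horizontal) for 18820 genes, with 2422 genes whose differences differed at an adjusted p under 0.05 in purple and equality as a dashed line. Epcam and Cidec lie near the line, Ckb, Efhd1 and Ramp3 well above it, and Cep55 and Bub1 below it.

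Genes with the most positive difference between the steps were Ckb, Ramp3, Efhd1, Hapln4, Rspo4, St6galnac4, Tmem163, Hrh3, Uroc1 and Parvb. Hapln4, a link protein of extracellular matrix, read 8.66, 8.45 and 8.71 with FXRα2, against 6.44, 6.35 and 6.51 with FXRα1. FXRα4 and FXRα3 averaged 6.48 and 6.32, so the rise of 2.17 ± 0.10 with FXRα2 stood beside 0.15 ± 0.10 in the long N-terminus (difference of the differences 2.01 ± 0.14, adjusted p = 1.6e-08). Rspo4, an R-spondin of Wnt signalling, rose by 2.28 ± 0.16 against 0.26 ± 0.16, and Hrh3, a histamine receptor, by 2.39 ± 0.12 against 0.59 ± 0.12. The most negative were Bub1, Slc35f2, Ncapg, Sgo2a, Cep55, Kif18b, Fas, Klrg2, Pclaf and Flnc. Several of these, Bub1, Ncapg, Sgo2a, Cep55 and Kif18b, act in chromosome segregation or cell division. For the short step, Kif18b read 1.04 ± 0.13, but its dimmer probe set 0.10 ± 0.09 (limma, adjusted p = 0.48). Pclaf read 0.45 ± 0.14, and its dimmer probe set 0.20 ± 0.16 (adjusted p = 0.38). Pclaf also missed the threshold without FXRα1 replicate 2 (adjusted p = 0.075) or FXRα2 replicate 3 (adjusted p = 0.092). Slc35f2, a solute carrier, read 6.37, 6.20 and 6.54 with FXRα2, against 7.58, 7.37 and 7.64 with FXRα1. It fell with FXRα2 (−1.16 ± 0.12) and rose with FXRα4 (0.66 ± 0.12), with no overlap between FXRα2 and FXRα1 (difference of the differences −1.82 ± 0.17, adjusted p = 2.2e-07). Klrg2 also went opposite ways, with means of 6.92 with FXRα2 and 7.92 with FXRα1, and of 8.10 with FXRα4 and 7.46 with FXRα3. Fas, the death receptor, averaged 7.22 with FXRα2 and 7.22 with FXRα1, against 8.61 with FXRα4 and 6.96 with FXRα3.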

How the data were processed

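RNA of 15 samples of transduced mouse hepatocytes was read on Affymetrix arrays. The authors' deposited table holds 1 log2 value per probe set and array, already normalized. That the base is 2 was inferred from the range, 1.93 to 13.8. Affymetrix Expression Console 1.1 and PLIER are named per the submitters' processing notes, with no role given, and the background correction is not given in the sources used here. Scaling between arrays could therefore set how many genes lie on each side of 0.

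Of 35556 probe sets, 21218 carried 1 gene symbol, 1881 several and 12457 none in the platform annotation, and 21185 matched by Entrez identifier. The brightest probe set of each of 18820 genes was kept (1386 genes had several), with no filter on dim ones. limma 3.58.1 in R 4.3.3 fitted 5 group means over 15 arrays, with moderated variances that follow the mean, two-sided tests and Benjamini-Hochberg adjustment over all genes. The same code was tested on simulated data. Samples were grouped by their titles, without pairing. Named were Nr1h4, the FXR targets, the 20 largest non-overlapping rises and falls other than predicted genes, up to 8 members per list by adjusted p, and the 10 largest differences each way between the N-termini. Members and lists (34 pathway lists and 6 marker lists, with 841 of 929 distinct pathway genes measured) were chosen with earlier results of these data known; the rest were not analysed here. Alternatives covered the variance model, array weights, dim genes, scaling, an offset, probe sets, a fold minimum, a replicate block, the 6 arrays alone and leaving out each array. Python 3.11.15, pandas 2.3.3 and matplotlib 3.10.9 handled tables and figures.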

Additional observations from a re-analysis of the deposited data

Results flagged for a closer look

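The short and the long step differed for the genes below at an adjusted p under 0.05 over all genes. The test was limma's, of (FXRα2 minus FXRα1) minus (FXRα4 minus FXRα3), and each value is that difference of log2 differences. The 10 most positive were 2.73 for Ckb, 2.49 for Ramp3, 2.15 for Efhd1, 2.01 for Hapln4, 2.01 for Rspo4, 1.82 for St6galnac4, 1.81 for Tmem163, 1.81 for Hrh3, 1.75 for Uroc1 and 1.73 for Parvb. The 10 most negative were −1.92 for Bub1, −1.82 for Slc35f2, −1.77 for Ncapg, −1.76 for Sgo2a, −1.73 for Cep55, −1.70 for Kif18b, −1.64 for Fas, −1.64 for Klrg2, −1.61 for Pclaf and −1.48 for Flnc. Among the largest rises with FXRα2, others were 1.13 for Zic2, 1.47 for Cacna1b, 1.28 for Eomes, 1.44 for Orm3, 0.58 for Il17d, 0.60 for Cldn9, 1.38 for Mme and −0.68 for Ttc9. Among the largest falls, a negative value is a deeper fall in the short N-terminus, and values were −0.46 for Krt19, −0.55 for Sema3e, −0.74 for Nexmif, −1.41 for Nes, −0.34 for Tinagl1, −0.71 for Jazf1, −0.60 for Dusp9, −1.002 for Syt17, −0.81 for Rpp25, −0.58 for Dio3 and 0.42 for Umps.

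Of the FXR targets, values were 1.03 for Nr1i2, 0.64 for Pdk4, 0.58 for Fga, 0.43 for Fgb, 0.48 for Ppara, 0.25 for Kng1, 0.56 for Fgfr4, −0.22 for Abcc2, −1.03 for Abcb11, −0.42 for Vldlr and −0.21 for Insig2. In bile acid, lipid, carrier and growth factor genes they were 1.32 for Cyp8b1, 1.37 for Abcc6, 1.30 for Cidea, 1.25 for Slc25a47, 0.93 for Slc25a10, −0.84 for Pparg, 0.88 for Igfals and 0.63 for Igfbp1. In secreted and inflammatory genes they were 1.40 for Orm2, 0.78 for Socs3, 0.73 for Crp, 0.73 for Ccl2, 0.81 for Tgfb1 and −1.09 for Cmpk2. In cell cycle, stress, filament and receptor genes they were −0.997 for Aurka, −1.04 for Cenpa, −1.08 for Pmaip1, −0.53 for Eda2r, −0.77 for Nupr1, 0.78 for Ddit4, 0.81 for Ulk1, −0.96 for Synm, −1.18 for Lgr5 and −0.33 for Nr1h4. Genes of the FXR target list and the largest changes were all tested for this; the others were taken from the lists after their values were seen, and no cause was tested. Groups of 3 arrays are too small for a test of outlying arrays.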

How the results depend on the processing

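Counts of genes higher and lower with FXRα2, and of genes whose difference was more positive or more negative in the short N-terminus, stayed within 1.5 times of those reported under every variance model, array weights, filters on dim genes, quantile normalization, centring on the 75th percentile or on brighter genes, an added offset of 16 and every probe set tested. The exceptions were 6204 lower genes with each array centred on its median, and a fold minimum of 1.5, which left 891 higher, 465 lower, 331 more positive and 412 more negative genes. Leaving out 1 array in turn gave 2390 to 2712 higher, 2566 to 3466 lower, 856 to 1183 more positive and 968 to 1802 more negative genes. With the replicate number as a replicate block the counts were 2936, 3634, 1422 and 1921, and no named gene lost its call. The labels do not say what arrays with the same replicate number share, so the block was not used in the main fit. Deviations from the group mean correlated at −0.02, 0.38 and 0.40 for same-numbered FXRα2 and FXRα1 arrays. Between numbers they ran from −0.42 to 0.16, with FXRα2 replicate 1 closest to FXRα1 replicate 2. Whether same-numbered arrays share a preparation cannot be decided from these values. With the block, 6 counts of falls and 2 of rises over the 40 lists moved by over 1.5 times. The falls became 4 hepatobiliary transporters, 4 lipoprotein genes, 8 ERK genes, and 2 each in lipid droplets, complement and the acute phase. The rises became 2 in the respiratory chain and 1 among Kupffer cell markers.

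Of 304 named genes called, 271 kept the call and direction under each alternative other than the fold minimum and 33 lost the call under at least 1 of these; 118 of the 304 lay under the fold minimum of 1.5. Apob, at 0.11 (limma, adjusted p = 0.049), reversed to −0.010 with centring on the median. The Apob call was also lost on leaving out any FXRα2 or FXRα1 array, with array weights, with quantile normalization and without the mean-variance trend. Apob is counted above among the lipoprotein genes and hepatocyte markers that rose. Over the 40 lists, centring on the median moved 14 counts of rises and 22 of falls by over 1.5 times, and 240 counts each way on leaving out 1 array moved 9 and 25 times. The remaining alternatives other than the replicate block, with 399 counts each way, moved 24 counts of rises and 26 of falls. Most of those are not given list by list. The list of lymphocytes and neutrophils had no gene left among the 9410 brightest. The causes were not tested. Signal over background is not given in the deposited values, so how far dim genes such as Bub1 or Lgr5 lie above it was not tested.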
